A study of Mus musculus with 4 samples.

Results

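The interferon-gamma axis of lymphocytes was described through 8 genes, picked by symbol out of the 31053 features counted in every library. They are Ifng, Ifngr1, Ifngr2, Tbx21, Eomes, Il12rb1, Il12rb2 and Il18r1, and all 8 were found. Each was measured in natural killer (NK) cells, T cells and macrophages, which were told apart within each tumour library by UMIs of marker genes that are not among the 8. A UMI (unique molecular identifier) stands for 1 captured transcript molecule. TC-1 is a transplantable tumour line made from mouse lung epithelium, and WT mice of the strain C57/bl6 had received 300000 of its cells under the skin. Once a tumour reached 40 square mm, the mouse was given PBS or cisplatin, a platinum drug that damages DNA, at 6 mg/kg into the peritoneum in 1 dose. The groups are PBS and cisplatin at 1, 3 and 7 days after treatment, with 1 library each, so no difference between these groups has a replicate check. For PBS the day is not given, and its source is named as untreated although its treatment is PBS. Neither the age of the mice nor how many were pooled is stated. Tumour cells in suspension had been sorted as CD45+, lin- CD90+ and CD127+ and labelled innate lymphoid cells, which are tissue lymphocytes without antigen receptors, and 15000 were loaded per library for counting at the 3-prime end of transcripts.

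Interferon-gamma, encoded by Ifng, is secreted by NK cells, group 1 innate lymphoid cells and T cells, and it activates macrophages and raises antigen presentation in many cell types. It binds a receptor of a ligand-binding chain (Ifngr1) and a signalling chain (Ifngr2), which act through Janus kinases. The T-box factors Tbx21 (T-bet) and Eomes drive Ifng transcription, and macrophage or dendritic cell cytokines induce it, IL-12 through the chains Il12rb1 and Il12rb2 with STAT4 and IL-18 through Il18r1.

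The PBS, day 1, day 3 and day 7 libraries held 10063, 10745, 6264 and 2981 barcodes with 59915831, 82493626, 36587207 and 16153484 UMIs, and after filtering 7425, 6841, 4715 and 2705 cells remained. The library pairs share between 4 and 32 barcodes, at most 0.511% of the smaller library. By the macrophage gate 82.4%, 64.7%, 54.7% and 74.8% of the kept cells at PBS, day 1, day 3 and day 7 were macrophages, which goes against the label of the sort. That gate takes cells in which C1qa, C1qb, C1qc, Lyz2 and Apoe hold at least 1% of the UMIs and no NK or T gate gene is seen. The NK gate (at least 2 UMIs of Ncr1, Klrb1c, Klra7, Klra8 and Klre1, under 2 UMIs of the T genes and at most 1% of macrophage gate UMIs) held 48, 59, 90 and 62 cells. The T gate held 153, 311, 539 and 86 cells. It asks for at least 2 UMIs of Cd3d, Cd3e and Cd3g, under 2 UMIs of the NK genes and Klra4 together, and the same macrophage limit. The NK gate cannot separate NK cells from group 1 innate lymphoid cells, which carry the same receptors. Sums of check genes outside the gates were highest in the gate of their name, in CPM (UMIs per 1000000 UMIs of the same gate and library). In NK-gated cells 6 NK genes such as Nkg7 summed to 6091 to 11132 CPM. They summed to 231 to 1218 in T-gated cells and to 5.76 to 64.5 in macrophages. In NK-gated cells 7 T cell genes summed to 1037 to 1576 CPM, against 2463 to 4363 in T-gated cells. Of these 7 genes 4, 7, 5 and 6 had a UMI in the NK gate at PBS, day 1, day 3 and day 7. T cell genes were thus lower in sum in the NK gate but not absent from it. The day 1 NK gate also held 2353 CPM of 5 mast cell genes and 616 of 7 dendritic cell genes, against at most 45.9 and 54.2 in the NK gates of the other 3 libraries, and the part of those cells in the day 1 values was not tested.

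The NK gate was first written with a sixth gene, Klra4. It took in 19, 24, 6 and 25 more cells at PBS, day 1, day 3 and day 7. These cells reached 2 UMIs only with Klra4 counted. In the PBS library these cells had a median of 26672 UMIs and held Tm4sf1 in 94.7% and Nkg7 in 10.5%, whereas NK-gated cells had a median of 2346 UMIs and held Nkg7 in 95.8%. The 6 cells of day 3 were unlike those of the other libraries, with Tm4sf1 in 33.3% and Nkg7 in 83.3%, and they held 2.38% of that library's Ifng UMIs. The 5-gene gate used here was chosen after this was seen, and the tests between gates are given under both gates. Klra4 stayed among the NK genes that define the T gate, the macrophage gate and every other class of cell.

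All 8 genes are protein coding and lie at the following places in mm10. Ifng lies at chr10:118441046-118445892 on the plus strand, and Ifngr1 at chr10:19591949-19610229 on the plus strand of the same chromosome. Ifngr2 lies at chr16:91547072-91565623 (plus), Tbx21 at chr11:97098071-97115331 (minus), Eomes at chr9:118478212-118486132 (plus), Il12rb1 at chr8:70808449-70821424 (plus), Il12rb2 at chr6:67291318-67376188 (minus) and Il18r1 at chr1:40465552-40500854 (plus).

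Promoter sequences of 7 of the 8 genes were matched in RefSeq (GRCm38.p6), and Il12rb1 was not matched. The 250 bases before the start are printed for the cytokine, for its 2 receptor chains, whose levels went opposite ways between lymphocytes and macrophages, and for Il12rb2, which was higher together with Ifng in the day 3 T gate. Each runs 5′ to 3′ on the gene's own strand, at chr10:118440796-118441045 (plus) for Ifng, chr10:19591699-19591948 (plus) for Ifngr1, chr16:91546809-91547058 (plus) for Ifngr2 and chr6:67376189-67376438 (minus) for Il12rb2. Capitals mark matches, on either strand, to a STAT motif (TTCNNNGAA), a GC box (GGGCGG) or a TATA box (TATAAA), which occur in 7.02%, 32.7% and 12.4% of 32851 RefSeq mouse promoters of the same length.
Ifng: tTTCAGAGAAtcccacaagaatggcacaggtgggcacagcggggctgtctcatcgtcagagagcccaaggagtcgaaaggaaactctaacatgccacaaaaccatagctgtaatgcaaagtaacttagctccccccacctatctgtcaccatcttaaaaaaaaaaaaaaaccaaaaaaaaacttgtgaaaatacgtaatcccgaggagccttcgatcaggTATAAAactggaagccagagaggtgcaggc
Ifngr1: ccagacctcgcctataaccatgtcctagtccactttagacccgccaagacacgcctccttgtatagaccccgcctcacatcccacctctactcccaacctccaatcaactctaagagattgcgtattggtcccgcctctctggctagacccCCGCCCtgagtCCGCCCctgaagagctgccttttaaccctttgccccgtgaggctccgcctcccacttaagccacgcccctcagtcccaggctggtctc
Ifngr2: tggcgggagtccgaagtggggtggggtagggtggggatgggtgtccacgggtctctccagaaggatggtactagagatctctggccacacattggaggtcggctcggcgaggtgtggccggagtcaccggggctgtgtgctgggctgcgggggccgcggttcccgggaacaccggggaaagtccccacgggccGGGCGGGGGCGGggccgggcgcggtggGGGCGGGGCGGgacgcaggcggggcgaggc
Il12rb2: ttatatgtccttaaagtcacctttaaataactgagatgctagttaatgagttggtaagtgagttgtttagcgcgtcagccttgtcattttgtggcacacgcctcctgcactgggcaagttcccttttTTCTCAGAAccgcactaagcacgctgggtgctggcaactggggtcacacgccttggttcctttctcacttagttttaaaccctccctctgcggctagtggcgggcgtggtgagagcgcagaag
The Ifng window held a STAT match from base -249 to -241 and a TATA match from -30 to -25, counted from the base before the start as -1. The Il12rb2 window held 1 STAT match, from -123 to -115. The windows of the interferon-gamma receptor chains held GC boxes only, 2 in Ifngr1 and 4 in Ifngr2, of which 1 pair in Ifngr2 overlaps by a base. Among the windows not printed, 1 of 3 for Il18r1 held 2 STAT matches, that of Tbx21 held 3 GC boxes and that of Eomes held no match. Ifngr2 was the richest of the 4 printed windows in CpG, with 25 CpG dinucleotides, against 11 in Ifngr1, 10 in Il12rb2 and 6 in Ifng, where the median over all promoters was 6. Another motif, the T-box element TCACACC, occurs in 3.33% of promoters and in none of the windows of the 7 matched genes. These matches describe letters and not sites that a factor was seen to use.

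Ifng was by far more abundant in NK-gated than in T-gated cells, and was close to absent from macrophages. Its level was 684, 639, 821 and 229 CPM in NK-gated cells at PBS, day 1, day 3 and day 7. In T-gated cells Ifng stood at 19.97, 89.7, 299 and 44.6 CPM. In macrophages it stood at 1.06, 2.90, 3.69 and 0.378. The NK gate was above the T gate in each of the 4 libraries, but the gates overlap across libraries, since the day 3 T gate stood above the day 7 NK gate. In the order of the 12 levels, the NK gates of day 3, PBS and day 1 lead, and the Poisson 95% intervals of neighbours among them overlap (552 to 838 for PBS, 553 to 734 for day 1). The day 3 T gate (278 to 322) and day 7 NK gate (167 to 307) come next and also overlap, and the day 7 and PBS T gates, with 10 and 9 UMIs, do not differ beyond counting error. Intervals here and below cover counting error only.

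**Figure D1:**
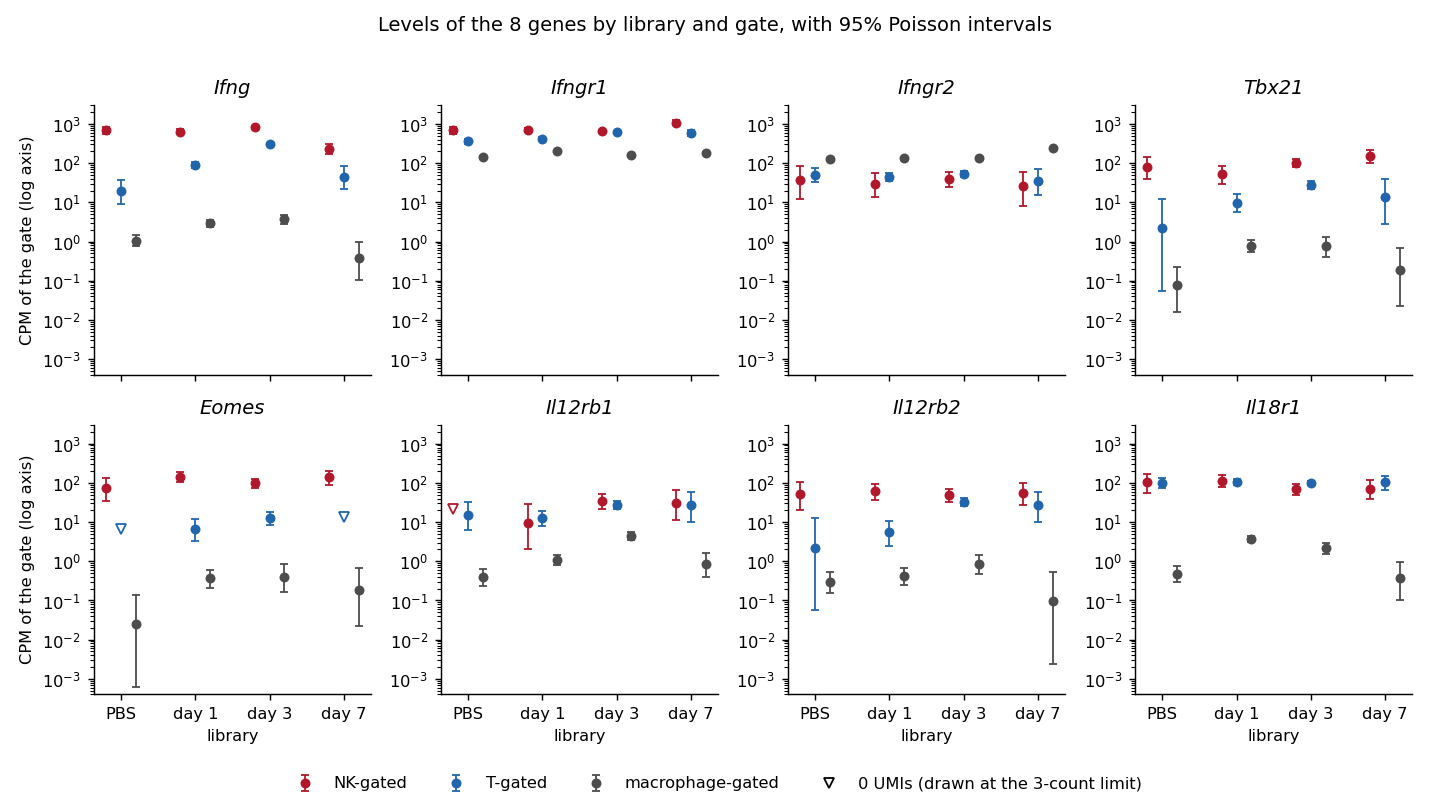
Levels of the 8 genes as CPM on a log axis, by library (PBS, day 1, day 3, day 7) and gate, with Poisson 95% intervals as bars. Ifng, Tbx21, Eomes, Il12rb2 and Il18r1 sit far lower in macrophages than in NK-gated cells in every library, Ifngr1 lies above and Ifngr2 below in NK-gated cells relative to macrophages, and open triangles mark 0 UMIs at the level of 3 UMIs.

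The share of cells with an Ifng UMI followed the same order of gates. It was 58.3%, 55.9%, 71.1% and 29.0% of NK-gated cells across PBS, day 1, day 3 and day 7, and 2.61%, 9.65%, 13.5% and 8.14% of T-gated cells. In macrophages, which should lack the transcript, the share was 0.539%, 2.15%, 2.44% and 0.198%. Cells of the 3 gates differ in depth, with medians of 2346 to 5276 UMIs in NK, 2087 to 3799 in T and 4917.5 to 8817 in macrophage gates. After thinning each cell to 2000 UMIs, which left out 3 to 17 NK, 26 to 61 T and 238 to 319 macrophage-gated cells per library, the shares were 54.8%, 44.6%, 48.2% and 30.0% in NK and 2.17%, 8.07%, 10.2% and 8.33% in T gates. Thinned macrophages had 0.0577% to 1.15%, so NK and T gates both stood above the share in macrophages in each library.

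Among T-gated cells a few cells held most of the transcript. On day 3 the 10 cells with the most Ifng carried 71.5% of its 731 UMIs, up to 122 in 1 cell, and on day 1 they carried 78.8% of 146 UMIs. In the NK gate of day 3 the top 10 of 90 cells carried 56.2% of 500 UMIs, and of day 1 the top 10 of 59 cells carried 74.1% of 197 UMIs. Over the whole libraries the NK gate, 0.646%, 0.862%, 1.91% and 2.29% of kept cells across PBS, day 1, day 3 and day 7, held 32.3%, 17.0%, 27.7% and 46.9% of all Ifng UMIs. The T gate held 3.13%, 12.6%, 40.4% and 10.4%. Cells with NK or T gate genes and over 1% macrophage gate UMIs, here called mixed, were 1.55% to 9.49% of cells and held 35.1%, 42.9%, 17.3% and 27.1%. Macrophages held 14.6%, 10.2%, 3.54% and 4.17%. So the T gate was the class with the most Ifng on day 3, the NK gate on day 7 and the mixed cells in the PBS and day 1 libraries, where the PBS Clopper-Pearson interval of mixed cells (29.6% to 40.9%) overlaps that of the NK gate (26.9% to 38.0%).

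**Figure D2:**
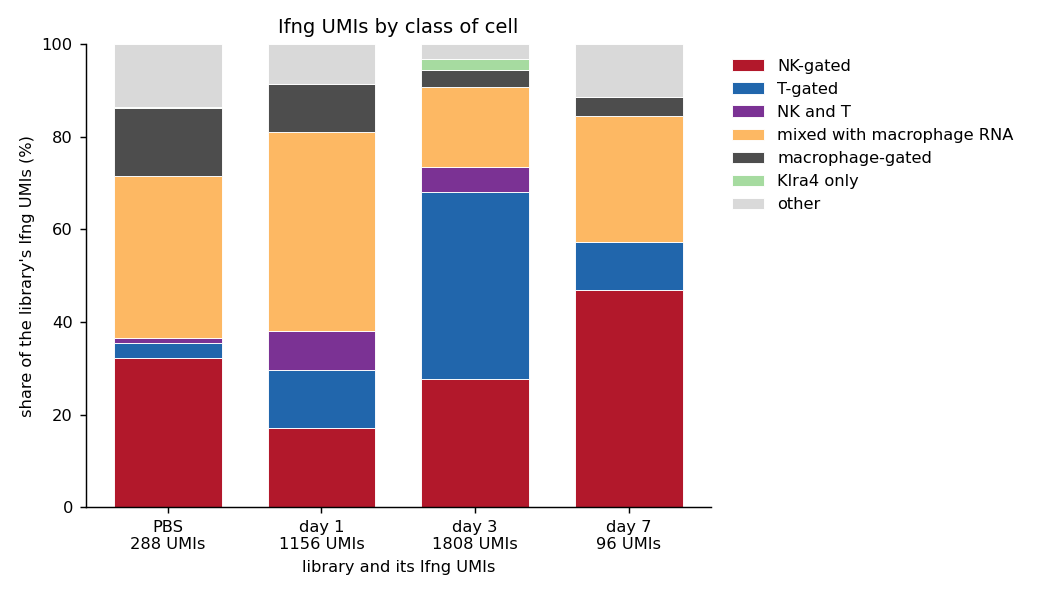
Share of each library's Ifng UMIs, in percent, held by each class of cell, with the number of UMIs under each bar (288, 1156, 1808 and 96). The T gate takes 40.4% on day 3 and at most 12.6% in the other libraries.

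The chains of the interferon-gamma receptor were measured in all 3 kinds of cell, and they ran opposite ways. Ifngr1, the ligand-binding chain, stood at 699, 703, 652 and 1071 CPM in NK-gated cells at PBS, day 1, day 3 and day 7. It stood at 364, 422, 605 and 584 in T-gated cells and at 146, 205, 161 and 182 in macrophages. NK levels lay above T levels and T levels above macrophage levels in every library. On day 3 the Poisson intervals of the NK gate (589 to 719) and the T gate (575 to 637) overlap. Ifngr2, the signalling chain, stood at 36.8, 29.2, 39.4 and 25.5 CPM in NK-gated cells, at 51.0, 45.5, 54.0 and 35.7 in T-gated cells and at 129, 132, 139 and 237 in macrophages. For Ifngr2 all macrophage levels lay above all NK and T levels, while the Poisson intervals of NK and T gates overlap in every library. After thinning to 2000 UMIs a cell, Ifngr1 was seen in 69.4% to 88.0% of NK-gated cells, 44.6% to 67.8% of T-gated cells and 25.3% to 33.6% of macrophages. Thinned Ifngr2 was seen in 2.00% to 5.88% of NK-gated cells, 5.43% to 10.4% of T-gated cells and 23.3%, 23.2%, 25.7% and 37.1% of macrophages across PBS, day 1, day 3 and day 7.

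Tbx21 and Eomes, the T-box factors, were highest in the NK gate. Tbx21 stood at 80.9, 51.9, 102 and 153 CPM in NK-gated cells at PBS, day 1, day 3 and day 7, at 2.22, 9.83, 27.4 and 13.4 in T-gated cells, and at 0.0755 to 0.786 in macrophages. Eomes stood at 73.5, 143, 96.9 and 138 CPM in NK-gated cells and at 6.76 and 12.7 in T-gated cells of days 1 and 3. No Eomes UMI was seen in T-gated cells of the PBS and day 7 libraries, where 3 UMIs would have given 6.66 and 13.4 CPM. All NK levels of both factors lay above all T levels. Macrophages held 3, 32, 13 and 2 UMIs of Tbx21 and 1, 15, 7 and 2 of Eomes.

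The receptor chains for the inducing cytokines differed from one another in where they were found. Il12rb2, the signalling chain for IL-12, stood at 51.5, 61.6, 49.3 and 56.1 CPM in NK-gated cells at PBS, day 1, day 3 and day 7, and at 2.22, 5.53, 33.1 and 26.8 in T-gated cells. Il12rb1, the chain that IL-12 and IL-23 share, had 0, 3, 21 and 6 UMIs in NK-gated cells, which are 0, 9.73, 34.5 and 30.6 CPM, and stood at 15.5, 12.9, 27.4 and 26.8 in T-gated cells. Il18r1, the ligand-binding chain for IL-18, stood at 103, 113, 69.0 and 71.4 CPM in NK-gated cells and at 102, 106, 100.3 and 103 in T-gated cells. Only Il12rb2 of the 3 had all its NK levels above all its T levels, and the levels of Il18r1 in T-gated cells varied the least over the 4 libraries of any of the 8 genes in any gate. After thinning, Il12rb2 was seen in 0%, 0.702%, 5.20% and 6.25% of T-gated cells, and Il18r1 in 18.5%, 21.4%, 16.4% and 14.6%. In macrophages Il12rb2 stood at 0.0945 to 0.864, Il12rb1 at 0.403 to 4.38 and Il18r1 at 0.378 to 3.71 CPM.

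The differences between gates were tested over the 4 libraries with edgeR's quasi-likelihood test on UMI sums, with the library as a block and Benjamini-Hochberg adjustment over 8358 genes, called at an adjusted p under 0.05. All 8 genes passed the filter on low counts. The libraries differ in treatment, so the p-values measure how far the difference between gates varied over 4 unlike libraries. In T over macrophage, 7 of the 8 genes were higher and 1 lower, where 23.1% of all genes tested were called higher and 25.4% lower. Il18r1 rose by 5.83 ± 0.38 (log2, SE) with edgeR's adjusted p of 1.46e-09, and Ifng by 5.56 ± 0.41 with 6.32e-09. Il12rb2 followed at 4.88 ± 0.55, Eomes at 4.66 ± 0.57, Tbx21 at 4.66 ± 0.52, Il12rb1 at 3.50 ± 0.43 and Ifngr1 at 1.39 ± 0.16, with edgeR adjusted p-values of at most 3.26e-06. Ifngr2 was the gene that fell, by 1.72 on the log2 scale (SE 0.20, edgeR adjusted p = 1.40e-06).

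In NK over macrophage the same 7 genes rose and Ifngr2 fell, where 18.0% of genes tested were called higher and 20.9% lower. Eomes differed by 8.77 ± 0.47 (log2, SE; edgeR adjusted p = 1.64e-10), Ifng by 8.36 ± 0.42 and Tbx21 by 7.44 ± 0.49. Il12rb2 differed by 6.84 ± 0.56, Il18r1 by 5.69 ± 0.47, Il12rb1 by 3.55 ± 0.56 and Ifngr1 by 2.16 ± 0.17, and Ifngr2 by -2.17 ± 0.26 (edgeR adjusted p = 3.62e-06). With Klra4 in the NK gate these values were 7.00 for Eomes, 6.51 for Ifng, 5.78 for Tbx21, 5.08 for Il12rb2, 3.97 for Il18r1, 2.11 for Il12rb1 and -1.72 for Ifngr2, all still called, whereas Ifngr1 at 0.46 was not (edgeR adjusted p = 0.135).

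In NK over T, 5 of the 8 genes were higher and 0 lower, where 4.25% of genes tested were called higher and 3.98% lower. Eomes rose by 4.11 ± 0.45 (log2, SE; edgeR adjusted p = 8.52e-06), Ifng by 2.80 ± 0.36 (5.84e-05) and Tbx21 by 2.78 ± 0.46 (0.000696). Il12rb2 rose by 1.96 ± 0.52 (edgeR adjusted p = 0.0236) and Ifngr1 by 0.77 ± 0.17 (0.00587). Il18r1 at -0.14 ± 0.40, Il12rb1 at 0.05 ± 0.56 and Ifngr2 at -0.45 ± 0.30 did not pass, with edgeR adjusted p-values of 0.923, 0.991 and 0.459, which does not show that their levels are alike. With Klra4 in the NK gate only Eomes (2.68, edgeR adjusted p = 0.000512) and Ifng (1.15, 0.0228) stayed higher. Tbx21 at 1.36 and Il12rb2 at 0.42 then missed the threshold (edgeR adjusted p = 0.0540 and 0.465), Il12rb1 was at -1.42 (0.0763) and Ifngr2 at 0.05 (0.900), Il18r1 fell by 1.85 (0.00872) and Ifngr1 turned round to -0.83 (0.0201). Ifngr1 was also lost without the PBS library (0.66), Il12rb2 without the PBS (1.64) or day 1 library (1.40), and Ifng, Ifngr1 and Il12rb2 without the block (2.43, 0.78 and 1.77).

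**Figure D3:**
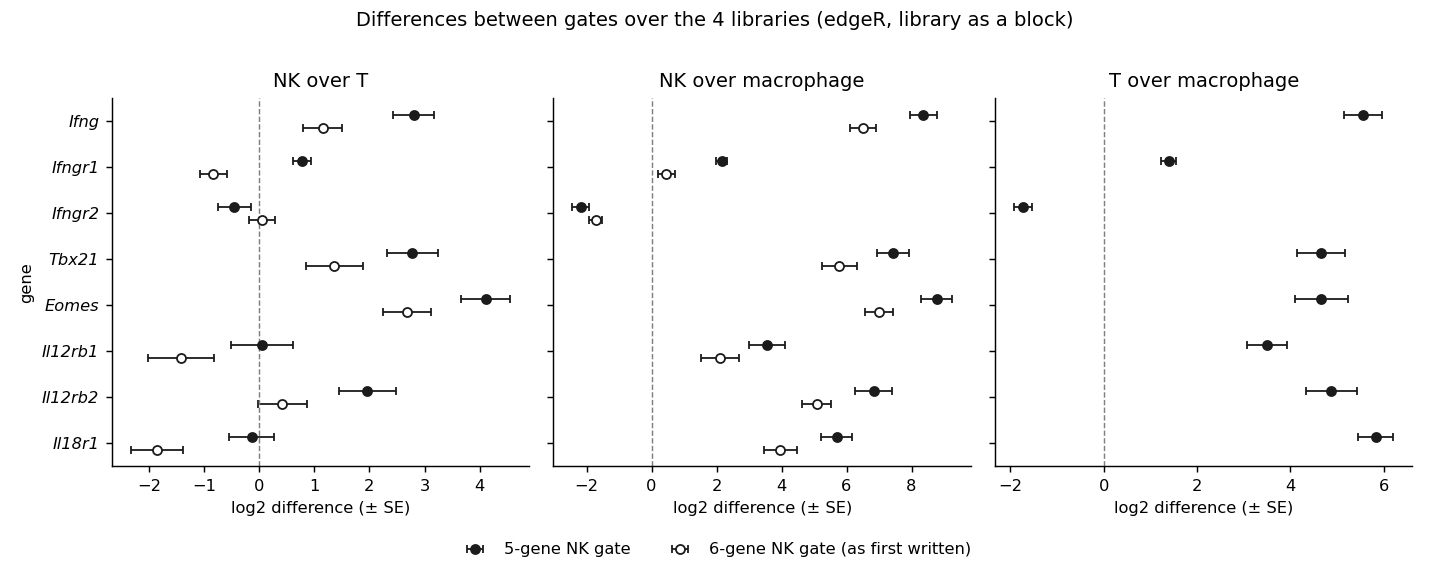
Log2 differences (± SE) of the 8 genes between gates over 4 libraries from edgeR, for NK over T, NK over macrophage and T over macrophage, with the 5-gene and the 6-gene NK gate. Ifngr2 lies below 0 in both comparisons with macrophages, and in NK over T Ifngr1 and Il12rb1 lie below 0 with the 6-gene gate, while Ifngr2 moves up to 0.05.

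Inside the T gate, the level of Ifng was highest in cells with a Cd8 UMI on day 1. It was also highest there on day 3, but within counting error of another subset. Il12rb2 was highest in those cells on day 3. T-gated cells were split by UMIs of Foxp3 (regulatory T cells), then Cd8a or Cd8b1, then Trdc (a gamma-delta receptor gene), leaving other T cells. On day 1 the Cd8+ cells had an Ifng level of 473 CPM, against 1.52 in Foxp3+, 9.70 in Trdc+ and 23.6 in other T cells, and 18 of 41 Cd8+ cells held an Ifng UMI against 1 of 133 Foxp3+ cells. On day 3 Ifng stood at 524 in Cd8+, 11.1 in Foxp3+, 436 in Trdc+ and 319 in other T cells. The day 3 Poisson intervals of Cd8+ (466 to 588) and Trdc+ cells (362 to 521) overlap. Cd8+ cells were deeper on day 3, with a median of 5561 UMIs against 3093 to 3313 in the other subsets. The part of depth was not tested. Foxp3+ cells were the lowest in both libraries, but on day 1 they and the Trdc+ cells held 1 Ifng UMI each, with intervals that overlap. Cd8+ cells held 89.0% of the T gate's Ifng UMIs on day 1 but 39.5% on day 3, when other T cells held 43.0% and Trdc+ cells 16.6%. The day 3 Trdc+ value rests on 4 of 73 cells, which held 121 UMIs between them. The PBS and day 7 libraries had 6 and 11 Cd8+ cells with 2 and 1 Ifng UMIs, which is too few for an order, and on day 7 the 9 Trdc+ cells held 8 of the gate's 10 Ifng UMIs.

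Il12rb2 on day 3 stood at 92.5 CPM in Cd8+ cells, against 12.7 in Foxp3+, 10.8 in Trdc+ and 19.3 in other T cells, so that Cd8+ cells held 63.0% of its UMIs. Tbx21 on day 3 stood at 41.7 in Cd8+, 22.2 in Foxp3+, 7.21 in Trdc+ and 28.4 in other T cells, with Poisson intervals of Cd8+ and Foxp3+ cells that overlap. Il18r1 had another pattern, with its highest level in Trdc+ cells on both days. It stood at 233 in Trdc+, 94.7 in Cd8+, 98.9 in Foxp3+ and 96.2 in other T cells on day 1, and at 202, 65.3, 73.0 and 109 in the same order on day 3. Ifngr1 was spread over all 4 subsets, at 508 in Cd8+, 668 in Foxp3+, 634 in Trdc+ and 611 in other T cells on day 3.

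**Figure D4:**
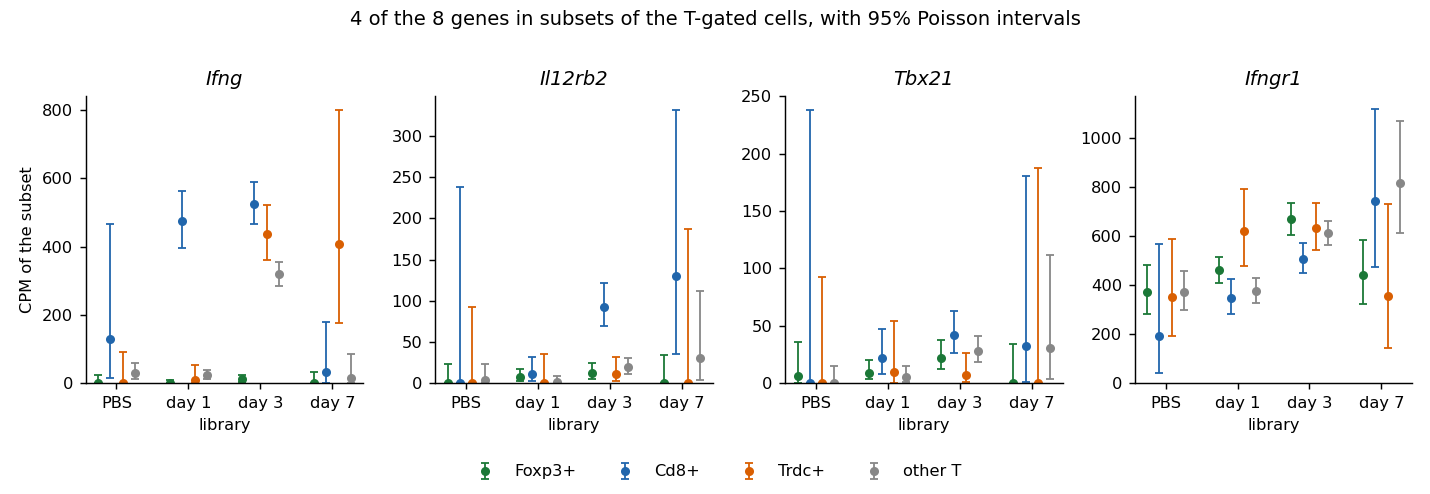
Levels of 4 of the 8 genes as CPM in Foxp3+, Cd8+, Trdc+ and other T-gated cells by library, with Poisson 95% intervals. Ifng is lowest in Foxp3+ cells on days 1 and 3, on day 1 with an interval that overlaps that of Trdc+ cells. Il12rb2 is highest in Cd8+ cells on day 3 at 92.5 CPM.

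Within the T gate, cells with and without an Ifng UMI were compared as shares of cells in 1 library, with no test. On day 3, 37.0% of the 73 T-gated cells with Ifng had an Il12rb2 UMI, against 6.44% of the 466 without. For Tbx21 the shares were 21.9% against 7.73%, for Eomes 8.22% against 2.36%, for Il12rb1 15.1% against 10.1%, for Il18r1 31.5% against 29.4% and for Ifngr1 84.9% against 81.1%. Cells with Ifng also held Cd8a in 42.5%, against 7.51%, and Foxp3 in 5.48%, against 32.8%, and the part of this mix of T cells in the shares was not tested. Cells with Ifng were deeper, with a median of 4912 UMIs against 3316, and the part of depth was not tested either. On day 1 the 30 cells with Ifng and the 281 without had closer depths (3963.5 and 3799 UMIs), with Tbx21 in 23.3% against 2.14%, Il12rb2 in 10.0% against 1.42% and Cd8a in 56.7% against 7.12%. At PBS and day 7 only 4 and 7 T-gated cells held Ifng, and none of them had a Tbx21 UMI. In the NK gate Tbx21 was in 28.6%, 27.3% and 46.9% of cells with Ifng across PBS, day 1 and day 3, against 15.0%, 23.1% and 57.7% of those without, and on day 7 in 9 of 18 cells with Ifng, against 14 of 44 without. Day 3 was thus the library where the share was lower in NK-gated cells with Ifng, on 64 cells with and 26 without.

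Over all kept cells of a library, 6 of the 8 genes were higher on day 1 than in the PBS library, 7 on day 3 and 6 on day 7. A gene counts as higher or lower when the ratio of cisplatin to PBS is at least 1.5-fold with an exact binomial interval that excludes 1, among genes with at least 20 UMIs over both libraries. A gene can reach that minimum through the library where it is high alone, so a count of calls among the genes that reached it is read no further. By that rule 17.1% of all genes were higher on day 1, 18.8% on day 3 and 19.9% on day 7. The single PBS library serves in all 3 comparisons, which therefore are not independent. In whole libraries, a change in the share of lymphocytes and a change in their RNA cannot be told apart, and fewer cells of a type and less RNA per cell look alike. The T gate made up 4.55%, 11.4% and 3.18% of cells on days 1, 3 and 7 and 2.06% in the PBS library.

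Ifng in all cells stood at 5.67, 17.4, 56.3 and 6.23 CPM across PBS, day 1, day 3 and day 7. The log2 ratio to PBS was 1.62 (95% interval 1.43 to 1.81) on day 1, 3.31 (3.13 to 3.50) on day 3 and 0.14 (-0.21 to 0.47) on day 7, so Ifng peaked on day 3 and did not pass on day 7. Tbx21 stood at 0.650, 2.94, 7.97 and 3.77, Eomes at 0.551, 2.60, 5.79 and 2.79 and Il12rb2 at 0.610, 2.02, 8.19 and 1.95 CPM. Il12rb1 stood at 0.630, 2.26, 6.94 and 1.62 and Il18r1 at 2.87, 14.1, 16.1 and 6.75. All 6 of these genes had their highest level in the day 3 library. Ifngr1 at 140, 208, 216 and 194 passed on day 3 alone (1.55-fold, with 1.49-fold on day 1), and Ifngr2 at 121, 119, 122 and 208 on day 7 alone (1.72-fold).

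Within the T gate, Ifng, Il12rb2, Tbx21, Eomes and Ifngr1 were higher on day 3 than in the PBS library. These are 5 of 8 genes, against 9.38% of genes higher and 5.85% lower in that comparison, and Ifng, Il12rb2, Tbx21 and Eomes reached the 20 UMIs through the day 3 library alone. The log2 ratio of Ifng was 3.90 (2.97 to 5.04), with 731 UMIs on day 3 and 9 in PBS. For Il12rb2 it was 3.90 (1.38 to 9.22) and for Tbx21 3.63 (1.10 to 8.95), each with 1 PBS UMI. Eomes had 31 UMIs on day 3 and 0 in PBS. With 3 UMIs in place of the 0 it was 1.91-fold higher (log2 0.93). The interval from the counts themselves starts at a log2 ratio of 0.55. Ifngr1 was 1.66-fold higher (log2 0.73, 0.50 to 0.98). Il18r1 at -0.03 (-0.49 to 0.46) and Ifngr2 at 0.08 (-0.56 to 0.79) did not pass. With no limit on macrophage RNA, which adds the mixed cells, the Ifng ratio on day 3 was 1.58. Cd8+ cells were 41 of 311, 82 of 539 and 11 of 86 T-gated cells on days 1, 3 and 7 and 6 of 153 in PBS, and the part of this mix in the T gate ratios was not tested.

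On day 1, Ifng alone passed in the T gate out of 5 genes with enough UMIs, where 5.88% of genes were higher and 3.29% lower. It was 4.49-fold higher (log2 2.17, 1.20 to 3.33), with 146 UMIs on day 1 and 9 in PBS. With no limit on macrophage RNA the ratio turned to -0.17 and was not called. Mixed cells held 496 Ifng UMIs on day 1 and 101 in PBS, of which 40 were in 1 PBS cell. On day 7, Ifngr1 alone passed out of 3 genes, at 1.61-fold (log2 0.68, 0.34 to 1.02), where 12.8% of genes were higher and 9.78% lower, and Ifng had 10 and 9 UMIs and was not compared. The Ifngr1 call was lost with the gate at 1 UMI (0.535), with macrophage RNA at 0.5% (0.15) or unlimited (0.38) and without cells over 15000 UMIs (0.55).

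Within the NK gate, Ifng did not pass on day 1 or day 3 and was lower on day 7. On day 7 the log2 ratio was -1.58 (-2.12 to -1.05), so that Ifng was 2.98-fold lower on day 7 than in PBS. This was 1 of 5 genes with enough UMIs, where 8.42% of all genes were lower and 16.4% higher, and Ifngr1 was the gene called higher, at 1.53-fold (log2 0.62, 0.26 to 0.98). On day 1, 0 of 6 genes passed, where 8.41% of genes were higher and 5.40% lower, and Ifng was at -0.10 (-0.46 to 0.27). That day 1 value was -1.10 with the gate at 1 UMI and -1.22 with macrophage RNA at 0.5%. On day 3 Ifng was at 0.26 (-0.06 to 0.60). The 1 call of 8, where 9.08% of genes were higher and 3.56% lower, was Il12rb1. It had 21 UMIs on day 3 and 0 in PBS, and with 3 UMIs in place of the 0 was 1.56-fold higher (log2 0.64). The interval from the counts themselves starts at a log2 ratio of 0.22. That Il12rb1 call was lost with the gate at 1 or 3 UMIs, with macrophage RNA at 0.5%, without cells over 15000 UMIs and under TMM or DESeq2 scaling. Ifngr1 on day 7 was lost under either scaling, which moved the median of all genes in that comparison by -0.20 and -0.18. The cells that reach the NK gate only with Klra4 would add 515971 UMIs to a PBS gate of 136003. With such cells included Ifng on day 3 was at 2.27. No test of the difference between the NK and T time courses was made, since each group is 1 library.

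Macrophages held low levels of the lymphocyte genes, which also differed by day. On day 1, 4 of 7 genes were called higher, Tbx21 (log2 3.38), Il18r1 (2.95), Il12rb1 (1.46) and Ifng (1.45), where 11.9% of genes were higher and 4.73% lower. On day 3, 4 of 6 were higher, Il12rb1 (3.44), Il18r1 (2.16), Ifng (1.80) and Il12rb2 (1.52), where 14.8% were higher and 15.9% lower. Tbx21, Il18r1 and Il12rb1 reached the minimum of UMIs through the day 1 library alone, with 3, 19 and 16 UMIs in PBS. Il18r1 and Il12rb1 likewise reached it through the day 3 library alone, so the counts of both days are read no further. On day 7 Ifngr2 was higher at 0.88 (0.81 to 0.95) and Ifng lower at -1.48 (-3.42 to -0.02), where 11.9% were higher and 16.4% lower. That Ifng ratio rests on 4 UMIs on day 7 and 42 in PBS, and its call was lost with doublets kept (-1.03) and under TMM or DESeq2 scaling (-1.37 and -1.35). Per 100 UMIs of Nkg7, Trac and Trbc2, lymphocyte genes, macrophages at PBS, day 1, day 3 and day 7 held 25.9, 15.6, 17.9 and 2.76 Ifng UMIs, and the NK-gated, T-gated and doubly positive cells together held 12.5, 15.1, 18.4 and 3.89. The ratios lie close together on the 3 cisplatin days and apart in PBS, and the part of free RNA in the macrophage values was not tested. Ifngr2 rests on 2503 macrophage UMIs on day 7 and 5119 in PBS.

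The other genes of the pathway were grouped in 6 lists. In T over macrophage 23.1% of all genes tested rose and 25.4% fell. There 7 of 7 tested partner receptor chains rose, with a median of 2.12 against -0.04 over all genes. With Klra4 in the NK gate of the same fit 6 of 7 rose, where 1845 of 9610 genes did. The 7 chains include Il27ra (6.32 ± 0.38, edgeR adjusted p = 5.83e-10) and Il2rb (5.87 ± 0.33, 2.28e-10), which serves IL-2 and IL-15. Another is Il18rap (4.22 ± 0.25, 5.41e-10), the signalling partner of Il18r1. Of 8 kinases and STATs 6 rose and 2 fell (median 0.88), led by Stat4, which IL-12 activates (3.13 ± 0.25, edgeR adjusted p = 1.49e-08). Of 11 transcription factors 4 rose, such as Gata3 at 6.66, and 3 fell, such as Hlx at -2.50 and Zeb2 at -2.04 (median 0.20). Of 9 inhibitors 2 rose and 4 fell (median -0.51), with Cish at 3.32 and Il18bp, which binds free IL-18, at -2.05. Of 3 inducing cytokines Il18 (-1.89) and Il15 (-1.65) fell and Ebi3 (0.91) rose. Of 14 genes that interferon-gamma induces 7 rose and 4 fell (median 0.66), the largest differences being those of the chemokine Cxcl9 (-2.76) and the class II genes H2-Aa (-2.49) and H2-Ab1 (-2.08).

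Among the pathway lists in NK over T, Stat4 (1.36 ± 0.27, edgeR adjusted p = 0.00294), Il2rb (1.69 ± 0.28, 0.000780), Irf8 (3.60 ± 0.21, 3.96e-09) and Runx3 (1.30 ± 0.20, 0.000271) rose, and Il21r (-2.58), Il6st (-2.76) and Ebi3 (-3.50) fell. With Klra4 in the NK gate Stat4 (-0.39, edgeR adjusted p = 0.177), Il2rb (-0.13, 0.828) and Runx3 (-0.45, 0.165) lost their calls, whereas Irf8 (1.97, 0.00240) still rose and Il21r (-3.69), Il6st (-1.15) and Ebi3 (-4.07) still fell. In NK over T, 4.25% of all genes tested were called higher and 3.98% lower. By list, partner chains had 2 higher and 2 lower of 7, kinases and STATs 3 and 0 of 8. Transcription factors had 3 and 0 of 11 and inhibitors 2 and 0 of 9. Cytokines had 0 and 1 of 3 and interferon-gamma targets 1 and 1 of 14. With Klra4 in the NK gate the counts were 0 and 4, 0 and 4, 1 and 5, 0 and 2, 0 and 2, and 0 and 7 in the same order, where 1915 of 9610 genes tested were higher and 1945 lower. In NK over macrophage, where 18.0% of genes tested were higher and 20.9% lower, higher and lower counts were 4 and 1 for partner chains, 4 and 1 for kinases and STATs, 6 and 2 for transcription factors, 3 and 4 for inhibitors, 0 and 2 for cytokines and 4 and 3 for targets. With Klra4 these were 3 and 1, 2 and 3, 3 and 4, 3 and 5, 0 and 3, and 2 and 6, where 2642 of 9610 genes were higher and 2710 lower.

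The 17 listed genes that interferon-gamma induces were compared between day 3 and PBS in each gate, where they had enough UMIs. In the T gate 14 of 14 target genes with enough UMIs were higher on day 3 (median log2 ratio 2.43), in macrophages 16 of 16 (2.46) and in the NK gate 8 of 13 (1.32), against 9.38%, 14.8% and 9.08% of all genes. Several of these genes also respond to type I interferon. This list was chosen with earlier results of these data known, and a gene can have enough UMIs through the cisplatin library alone. These counts, and those of day 1 and day 7 below, are therefore read no further. H2-Aa, a class II antigen presentation gene, stood at 39.9, 232, 527 and 53.5 CPM in T-gated cells at PBS, day 1, day 3 and day 7, and at 206, 777, 2376 and 697 in macrophages. In NK-gated cells it stood at 22.1, 522, 933 and 224, so in all 3 gates the day 3 library was the highest and the PBS library the lowest. Over the same libraries, 8 macrophage genes summed to 730, 868, 927 and 424 in the T gate and to 574, 788, 851 and 541 in the NK gate, and 7 dendritic cell genes to 129, 135, 324 and 116 and to 7.35, 616, 54.2 and 10.2. In the day 7 T gate all 26 UMIs of the dendritic cell genes were of Ccr7, and whether T cells made them was not tested. The part of macrophage and dendritic cell RNA in the lymphocyte values was not tested either.

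Nos2, the inducible nitric oxide synthase, in macrophages had 13.1 CPM on day 3 and 0.377 in PBS, a log2 ratio of 5.12 (4.37 to 5.98). Cd274 (PD-L1) in macrophages stood at 85.6 on day 3 and 5.36 in PBS (3.997, 3.79 to 4.21). Cxcl10, a chemokine for T and NK cells, stood at 819 on day 3 in T-gated cells and 75.4 in PBS (3.44, 2.95 to 3.97). These 3 genes were named for their large differences in these data, so the intervals, which cover counting error only, add no support. On day 7, 8 of 12 target genes were higher in the T gate (median 1.13), 7 higher and 2 lower of 16 in macrophages (0.62) and 2 higher and 1 lower of 7 in the NK gate (0.67), the last being Cxcl10 at 91.8 on day 7 and 242.6 in PBS. Of all genes 12.8% were higher and 9.78% lower on day 7 in the T gate, 11.9% and 16.4% in macrophages and 16.4% and 8.42% in the NK gate. On day 1, 8 of 14 were higher in the T gate (0.92), 11 of 16 in macrophages (0.79) and 2 of 10 in the NK gate (0.64), against 5.88%, 11.9% and 8.41% of all genes.

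**Figure D5:**
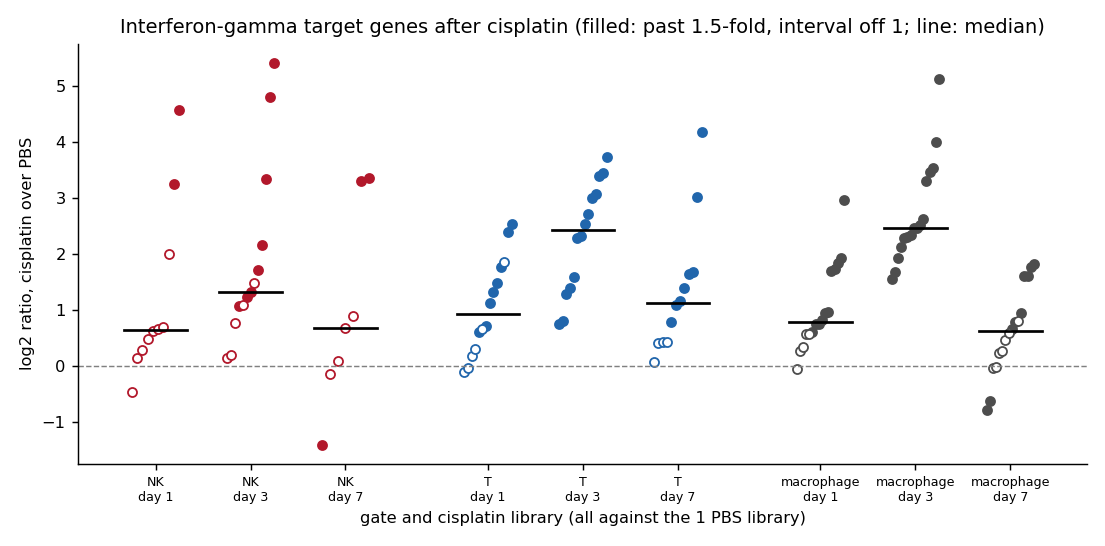
Log2 ratios of cisplatin over PBS for each interferon-gamma target gene with at least 20 UMIs, by gate and day, with the median as a line and genes past 1.5-fold whose interval excludes 1 filled. Medians are highest on day 3, at 1.32 in NK, 2.43 in T and 2.46 in macrophage gates, and all 3 days share the 1 PBS library.

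Genes that restrain the pathway and cytokines that induce Ifng were compared with PBS in day 3 macrophages as well. Of 9 inhibitors 7 were higher (median log2 ratio 1.498), against 14.8% of all genes, with Il18bp at 160.0 CPM on day 3 and 14.6 in PBS (3.46, 3.33 to 3.59) and Socs1, which blocks JAK signalling, at 64.7 and 11.8 (2.46, 2.30 to 2.62). Of 6 inducing cytokines 5 were higher (1.22), led by Il27 at 10.8 and 1.71 (2.65, 2.25 to 3.08). Il18bp, Socs1 and Il27 were named for their large differences in these data, so their intervals add no support. These lists were also chosen with earlier results of these data known, so the counts are read no further. Il12b, a chain of IL-12, stood at 1.44 and 0.428 (1.75, 0.80 to 2.73), with 25 and 17 UMIs. The 7 dendritic cell genes summed to 15.5 CPM in day 3 macrophages and to 5.13 in PBS macrophages. The part of dendritic cell RNA in these cytokine values was not tested. In the day 3 T gate 6 of 9 inhibitors were higher (0.80), against 9.38% of all genes, among them Il18bp at 44.2 on day 3 and 6.66 in PBS and Il10 at 37.2 and 8.88.

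The genes whose pattern over the 12 library-by-gate sums was most like each of the 8 were named by Pearson correlation of log2(CPM + 10) over 11511 genes with at least 50 UMIs. For Ifng they were Celf2 (0.951), Serpinb9 (0.951) and Gimap5 (0.947), for Tbx21 Prf1 (0.987), Osbpl5 and Bcl2, and for Eomes Atp1b1 (0.988), Klra9 and Styk1. For Il12rb2 they were Cd160 (0.975), Xcl1 and Fasl, for Il18r1 Ablim1 (0.996), Vgll4 and Ccdc88c, and for Il12rb1 Orai1 (0.923), Map3k14 and Ap1s3. Ifngr1 was nearest to Esyt1 (0.987), Sla2 and Sytl3, and Ifngr2 to Gpx1 (0.980), Tifab and Itgb5. The 12 points share libraries and gates, and with a pseudocount of 1 or 50 in place of 10 only 12 and 10 of these 24 names were kept.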

How the data were processed

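The authors deposited raw UMI counts per gene and barcode for each library, with 31053 features in 1 order, and per the submitters' processing notes the tools were Cell Ranger 3.1.0 and Seurat 3.1.2 and the build mm10, with no roles given. No other column of per-sample values was found (0). Cells entered with 500 genes or more and no more than 10% of mitochondrial UMIs. Scrublet at an expected rate of 8% called only 4, 4, 0 and 0 doublets at PBS, day 1, day 3 and day 7, and therefore the highest scores were removed at 0.8% per 1000 barcodes (650, 643, 249 and 66 cells).

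UMIs were summed per library and gate, as counts and as CPM. NK and T gates needed 2 UMIs of their genes. The NK gate was to use 6 genes and was cut to 5 after the data were seen, because of Klra4, and both are given. Gates were compared with edgeR 4.0.16 in R 4.3.3 (TMM, filterByExpr, quasi-likelihood, library as a block, since gates of 1 library share its mice and sort), with DESeq2 1.42.0 as an alternative. The NK over T fit was tested on simulated data with 8055 genes, where it recovered 34 of 100 genes changed 2-fold and 91 of 100 changed 8-fold, with 6 false calls. Days were compared with no test, as ratios with exact binomial 95% intervals, Poisson 95% intervals on levels and Clopper-Pearson 95% intervals on shares, from scipy 1.17.1. UMIs are counted molecules, and intervals and the floor of 3 UMIs cover counting error only.

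The genes named are the 8, up to 3 genes of each pathway list with the largest differences among those called in a comparison, also followed through the other libraries, and for each of the 8 the 3 nearest genes by correlation. Cells with NK or T genes that carry macrophage RNA, and check genes, were named to describe the gates. The genes and lists were chosen with earlier results of these data known. Positions are from GENCODE vM21, promoters from RefSeq. Alternatives covered the gates, cell filters, doublets, scaling, low-count filter, tool, block and each library left out.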

Additional observations from a re-analysis of the deposited data

How the results depend on the processing

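Among single genes 1298 alternative values kept the side of the threshold or the range of the reported one, 37 moved, 9 lost and 1 gained a call and 5 reversed, and among counts and Ifng 262 kept it, 45 moved and 1 reversed. The reversals and the counts and Ifng values that moved are given next. In the comparison of gates, NK over T called 688 genes, 3860 with Klra4 in the NK gate, 325 with no replicate block and 393 to 525 with a library left out, and 5 of the 8 genes, 2 with no block and 3 to 5 with a library left out. NK over macrophage called 3247 genes, 5352 with Klra4 in the gate, and T over macrophage 4053, 2697 with no replicate block. Ifngr1 in NK over T reversed to -0.83 with Klra4.

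For NK-gated cells on day 1, where 0 genes were called, 1 was called with the gate at 1 or 3 UMIs and with macrophage RNA at 0.5% or unlimited, and Ifng was then at -1.10 (1 UMI), -1.22 (0.5%) and -0.78 (no limit). On day 3 the count of 1 was 7 with Klra4, 3 with no macrophage limit and 0 with the gate at 1 or 3 UMIs, macrophage RNA at 0.5%, cells over 15000 UMIs left out, TMM or DESeq2 scaling. Ifng on day 3 was 2.27 with Klra4 and 0.62 with no limit, and with Klra4 Ifngr1 (1.61), Il12rb2 (1.84) and Il18r1 (1.33) reversed. On day 7 the count of 2 was 5 with Klra4, 4 with macrophage RNA at 0.5% and 1 with the gate at 1 UMI, no limit, deep cells left out, TMM or DESeq2 scaling.

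For T-gated cells on day 1, Ifng was 4.26 with the gate at 3 UMIs and reversed to -0.17 with no macrophage limit, where 0 genes were called. On day 3 Ifng was 5.76 and 1.58 under the same settings. On day 7 the count of 1 (Ifngr1) was 0 with the gate at 1 UMI, macrophage RNA at 0.5% or deep cells left out, and 2 with no limit or a minimum of 1 UMI, and Ifngr2 reversed to 0.96 with no limit. In macrophages on day 7 the count of 2 was 1 (Ifng lost) with doublets kept, TMM or DESeq2 scaling. Of the 24 nearest genes, 12 and 10 were kept with pseudocounts of 1 and 50. The cause of these shifts was not tested.

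TMM and DESeq2 scaling moved the median of all genes by over 0.1 in the NK gate on day 3 (-0.15 and -0.16) and day 7 (-0.20 and -0.18), in macrophages on day 7 (0.12 and 0.13) and in all cells on day 1 (-0.13 and -0.14). No day comparison could be paired, since each group is 1 library. Treatment cannot be told apart from the day of the sort, the age of the tumour or the batch of the library. The NK gates hold 48 to 90 cells and 136003 to 608948 UMIs, so that 3 UMIs amount to 22.1 CPM in the PBS library, and day ratios of low genes such as Il12rb1 rest on few UMIs there.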

Other observations

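Cells with at least 2 UMIs of both the NK and the T gate genes, which entered no comparison, numbered 2, 20, 47 and 10 at PBS, day 1, day 3 and day 7. On day 3 they held Ifng at 290 CPM (95% interval 235 to 353) in 23 of 47 cells, Il12rb2 at 71.0 (45.5 to 106), Tbx21 at 62.1 (38.4 to 94.9), Eomes at 38.4 (20.5 to 65.7) and Ifngr1 at 579.6 (501 to 667). On day 1 Ifng stood at 334 (271 to 407) in 11 of 20 cells, and on day 7 no Ifng UMI was seen in 10 cells, which allows up to 138 CPM by the Poisson interval. They had a median of 5646 UMIs and a median doublet score of 0.0424 on day 3, against 0.0329 in T-gated and 0.0440 in NK-gated cells. Whether they are 1 kind of cell was not tested.

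Mixed cells, with NK or T gate genes and over 1% of macrophage gate UMIs, held Ifng at 118, 63.5, 104 and 27.5 CPM at PBS, day 1, day 3 and day 7. Their Ifngr2 level, at 102, 101, 108 and 192, lay between those of T-gated cells and macrophages in each library. Their median doublet scores were 0.138 to 0.183, against 0.0844 to 0.103 in macrophages.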
